A study of Mus musculus with 6 samples.

Results

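The receptors described here are 7 members of the low-density lipoprotein (LDL) receptor family, *Lrp1*, *Lrp2*, *Lrp4*, *Lrp5*, *Lrp6*, *Lrp8* and *Vldlr*, together with the megalin partners *Cubn* and *Dab2*. They are the 9 rows carrying these gene names among 28262 genes listed in the deposited count table. The group was put together because *Lrp2*, which encodes megalin, stood much higher in knockout than in control libraries, so the difference between genotypes in these 9 genes is a description of the choice and carries no p-value. Sertoli cells, the somatic cells that nurse germ cells in the seminiferous tubule, were isolated from 20-day-old C57BL/6 mice and cultured at 34 °C in 5% CO2 without further treatment. Libraries of total RNA were made from 3 samples of floxed Pa1F/F cells, which served as control, and from 3 samples of Amh-pa1-/- cells. In Amh-pa1-/- mice the same floxed alleles are deleted by Cre recombinase under the *Amh* promoter, which per the study drives Cre in Sertoli cells alone among the cells of the testis. The question the comparison addresses is which genes need PA1, a nuclear protein, for their normal level in Sertoli cells.

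Receptors of the LDL receptor family are single-pass membrane proteins that bind their ligands through cysteine-rich repeats outside the cell and carry short tail motifs for clathrin adaptors inside it. Megalin takes up vitamin carriers, hormones bound to carrier proteins and filtered proteins at the apical face of absorptive epithelia, best known from the kidney proximal tubule, the yolk sac and the epididymis. It works there with cubilin, the product of *Cubn*, which has no tail of its own, and with the adaptor DAB2, which links the receptors to clathrin. *Lrp1* clears protease and inhibitor complexes and lipoprotein remnants, *Lrp8* and *Vldlr* are the receptors of reelin, and *Lrp8* also takes up selenoprotein P, which brings selenium to Sertoli cells. *Lrp5* and *Lrp6* are co-receptors of Wnt ligands, and *Lrp4* is the agrin receptor of the neuromuscular junction and a brake on Wnt signalling.

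Between 13203757 and 16231443 reads were counted on genes per library, at which depth 3 counts equal 0.185 to 0.227 CPM (a count scaled by the total of its library). All 9 members passed the filter on low counts, as did 14919 genes in all. Normalized counts below are counts scaled to a common effective library size by edgeR's TMM method. The libraries of a genotype were unevenly spaced. The median absolute log2 difference over tested genes was 0.097 between Pa1F/F replicates 1 and 3 but 0.148 and 0.156 in the pairs with replicate 2, and 0.093 between Amh-pa1-/- replicates 1 and 2 but 0.230 and 0.229 in the pairs with replicate 3. Over the 9 members the same measure was 0.114 and 0.039 for the close pairs and 0.310 to 0.394 for the others, so values are also given without Pa1F/F replicate 2 and Amh-pa1-/- replicate 3 where that matters. The Sertoli cell markers *Sox9* and *Dhh* were present in every library. *Sox9* gave 4290.2 to 4983 normalized counts in Pa1F/F and 3172 to 4904 in Amh-pa1-/- cells, and *Dhh* 4489 to 5729 and 4865 to 5085. Of the 13 Sertoli cell markers listed, *Rhox5* (2 to 16 raw counts a library) and *Trf* (2 to 6) were too low to test. Of 11 Sertoli cell markers tested, *Dmrt1* was higher and 4 (*Clu*, *Gata4*, *Inhbb* and *Nr5a1*) were lower in Amh-pa1-/- cells at an adjusted p under 0.05, of which *Inhbb* was also past the fold threshold (a mean of 2132 and 1064 normalized counts, adjusted p = 0.00162, and a log2 fold change of -1.15 to -0.89 with a library left out). *Gata4* stood at a log2 fold change of -0.88. The summed level of the markers, most of it *Clu*, was 16143 to 16378 CPM in Pa1F/F and 9733 to 12525 CPM in Amh-pa1-/- libraries, and its part in the members' levels was not tested. In RNA of a whole cell population, fewer cells of a type and less RNA per cell cannot be told apart.

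The sequences ahead of the annotated start are shown for the member with the largest gain (*Lrp2*), the most abundant member (*Lrp1*) and the member with the largest loss (*Vldlr*). They are RefSeq promoter sequences of build GRCm38.p6, read 5′ to 3′ on the strand of the gene, and only bases outside the gene as placed in the deposited table are printed. The *Lrp2* stretch is chr2:69586066-69586279 on the minus strand, from base 250 to base 37 ahead of the RefSeq start. The *Lrp1* stretch is chr10:127621149-127621398 on the minus strand and the *Vldlr* stretch is chr19:27216234-27216483 on the plus strand, each with all 250 bases ahead of the start. Capitals mark the GC box, GGGCGG or its reverse complement.
Lrp2: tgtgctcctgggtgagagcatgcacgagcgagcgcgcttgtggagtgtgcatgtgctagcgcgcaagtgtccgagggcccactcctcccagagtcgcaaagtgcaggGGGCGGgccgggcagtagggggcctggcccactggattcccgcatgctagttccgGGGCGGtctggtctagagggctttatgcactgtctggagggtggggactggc
Lrp1: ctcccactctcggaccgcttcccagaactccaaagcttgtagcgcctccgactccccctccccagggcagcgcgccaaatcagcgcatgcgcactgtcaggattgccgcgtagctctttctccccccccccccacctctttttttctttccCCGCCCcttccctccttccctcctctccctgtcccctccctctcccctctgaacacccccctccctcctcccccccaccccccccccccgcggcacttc
Vldlr: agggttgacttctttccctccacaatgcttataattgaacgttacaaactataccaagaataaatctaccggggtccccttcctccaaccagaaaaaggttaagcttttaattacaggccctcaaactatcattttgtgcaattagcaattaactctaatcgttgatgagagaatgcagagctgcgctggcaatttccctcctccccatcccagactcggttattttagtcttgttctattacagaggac
The *Lrp2* promoter held GGGCGG at bases 143 to 138 and 88 to 83 ahead of the start, the *Lrp1* promoter held it on the opposite strand at bases 99 to 94, and the *Vldlr* stretch shown did not hold it. A second *Vldlr* promoter, whose 250 bases lie inside the gene as placed in the table, held a GC box at bases 42 to 37 and CCAAT at bases 78 to 74, both on the opposite strand. GC content over all 250 bases was 66.4% in *Lrp2*, 67.2% in *Lrp1* and 41.6% in the *Vldlr* stretch shown, against a median of 52.4% over 32851 mouse promoters of the same length. RefSeq promoters were matched for 6 of the 9 members, 10 promoters in all. On either strand, 32.7% of all promoters held the GC box and 33.8% held CCAAT. None of the 10 promoters held the AP-1 motif TGANTCA, the CRE motif TGACGTCA or TATAAA, which were found in 6.75%, 1.55% and 12.4% of all promoters.

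*Lrp2* (ENSMUSG00000027070, GRCm38 chr2:69424340-69586065, minus strand) was low in control cells and well expressed in knockout cells. In the order of replicates 1, 2 and 3, its raw counts were 123, 36 and 166 in control libraries and 3457, 3180 and 1748 in knockout libraries. Scaled to a common depth these became 111, 34.9 and 174 normalized counts in Pa1F/F and 3374, 3582 and 1751 in Amh-pa1-/- cells. The lowest knockout library thus stood far above the highest control library, while within each genotype the library that stood apart was also the lowest. The means were 107 ± 69.7 and 2903 ± 1002 normalized counts (SD, n = 3), a 27.2-fold difference and a log2 fold change of 4.77 (standard error 0.54). Leaving out each library in turn gave log2 fold changes from 4.35, without Pa1F/F replicate 2, to 5.30, without Pa1F/F replicate 3. Relative to its mean, *Lrp2* was the most variable member in both genotypes apart from *Cubn* in Amh-pa1-/- cells, with a coefficient of variation of 65.3% in Pa1F/F and 34.5% in Amh-pa1-/- cells.

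The partners of megalin overlapped between the genotypes. *Cubn* (ENSMUSG00000026726, chr2:13276338-13491813, minus strand) gave 50.7, 74.6 and 36.7 normalized counts in Pa1F/F and 76.1, 106 and 51.1 in Amh-pa1-/- cells, from 35 to 94 raw counts a library. The log2 fold change was 0.52 (standard error 0.35), short of both thresholds, and 0.25 (without Amh-pa1-/- replicate 2) to 0.82 (without Pa1F/F replicate 2) with a library left out. With Pa1F/F replicate 2 and Amh-pa1-/- replicate 3 both left out it was 1.03 (standard error 0.23) and passed both, so the side of the threshold on which *Cubn* falls depends on those libraries. The gene overlaps *Gm13270* on the opposite strand, to which 4 to 12 reads a library were counted, and reads of the overlap cannot be told apart without strand. *Dab2* (ENSMUSG00000022150, chr15:6299788-6440712, plus strand) gave 1343, 1161 and 1394 normalized counts in Pa1F/F and 1822, 1686 and 1230.4 in Amh-pa1-/- cells. Here too the groups overlapped through Amh-pa1-/- replicate 3, and the log2 fold change was 0.28 (standard error 0.15). It was 0.44 (standard error 0.09) without that library, 0.36 (standard error 0.05) with both libraries that stand apart left out and 0.17 (standard error 0.15) without Amh-pa1-/- replicate 1. *Amn*, which encodes amnionless, the membrane anchor of cubilin, had 5, 6 and 4 raw counts in Pa1F/F libraries and 6, 0 and 4 in Amh-pa1-/- libraries and was too low to test (a count of 0 allows up to 3 counts).

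Some but not all markers of mesothelium, another cell type, were higher where *Lrp2* was. Of 8 mesothelial markers, 7 were tested and 4 rose at an adjusted p under 0.05, and the summed level of the list was 23.4 to 29.5 CPM in Pa1F/F and 49.6 to 58.3 CPM in Amh-pa1-/- libraries. *Upk3b*, which encodes a uroplakin, stood at 6.34, 4.84 and 14.7 normalized counts in Pa1F/F and 230.4, 242 and 339 in Amh-pa1-/- cells (log2 fold change 4.98, standard error 0.36, adjusted p = 0.000249). It was highest in Amh-pa1-/- replicate 3, where *Lrp2* was the lowest of its group. *Krt19*, with 3, 1 and 1 raw counts in Pa1F/F and 53, 53 and 55 in Amh-pa1-/- libraries, and *Lrrn4* (log2 fold change 1.99) were called higher as well, while *Upk1b* (0.38) passed neither threshold, nor did *Msln* (-0.53) and *Krt8* (-0.77), whose means were lower in Amh-pa1-/- cells, and *Krt7* had at most 1 count in any library. *Krt18* rose past the adjusted p alone (log2 fold change 0.53, adjusted p = 0.0121). It gave 168 to 192 normalized counts in Pa1F/F and 230.4 to 276 in Amh-pa1-/- cells. The part of mesothelial cells in the *Lrp2* level was not tested. Of the markers of rete testis and efferent duct, epithelia of the duct system, *Cdh16*, *Lhx1* and *Slc9a3* had at most 3 counts in every library. The summed level of that list was 3.08 to 3.71 CPM in Pa1F/F and 2.32 to 3.75 CPM in Amh-pa1-/- libraries, and of its 2 tested genes *Emx2* fell and *Pax2* did not pass.

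**Figure D1:**
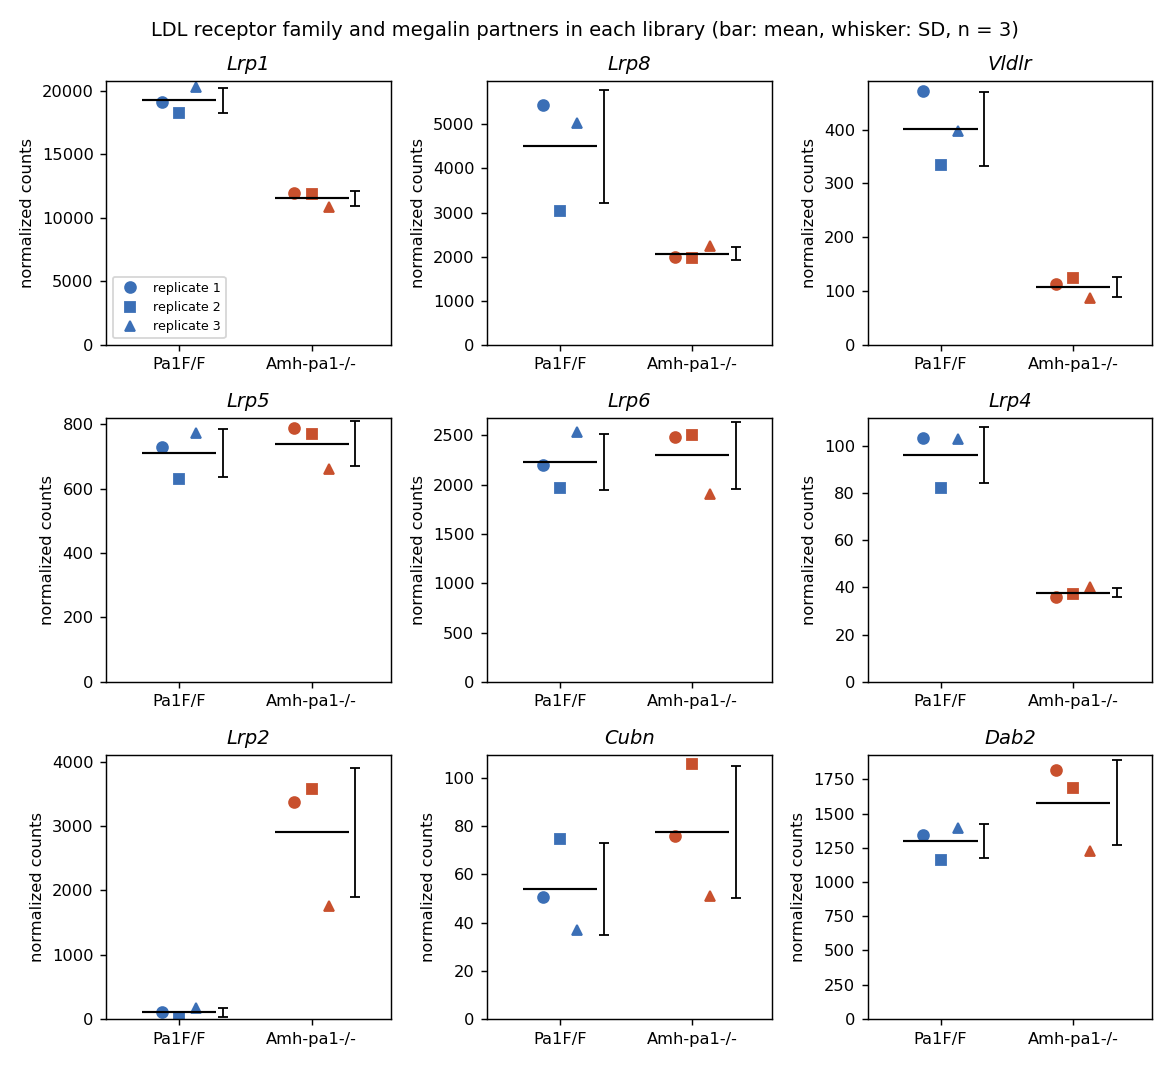
Normalized counts (vertical axes, each from 0) of the 9 genes in the 3 Pa1F/F libraries (blue) and the 3 Amh-pa1-/- libraries (red). The symbol gives the replicate, the horizontal bar the mean and the whisker the SD. *Lrp2* sits between 34.9 and 174 in Pa1F/F and between 1751 and 3582 in Amh-pa1-/- cells, *Lrp1*, *Lrp8*, *Vldlr* and *Lrp4* are lower in every Amh-pa1-/- library, and the other 4 genes overlap.

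The large clearance receptor and both reelin receptors were lower in Amh-pa1-/- cells. *Lrp1* (ENSMUSG00000040249, chr10:127538161-127621148, minus strand) gave 19146, 18296 and 20309 normalized counts in Pa1F/F and 11923, 11842 and 10846 in Amh-pa1-/- cells. The groups lay far apart next to their spread, at 19250.3 ± 1011 and 11537 ± 599.8 (SD, n = 3), and the log2 fold change was -0.74 (standard error 0.08), from -0.78 to -0.69 over the libraries left out in turn. *Lrp1* passed the adjusted p and not the fold threshold.

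*Lrp8* (ENSMUSG00000028613, chr4:107802261-107876840, plus strand) encodes apolipoprotein E receptor 2. It gave 5445, 3034 and 5030.1 normalized counts in Pa1F/F and 1996, 1966 and 2246 in Amh-pa1-/- cells. No library of one group reached the other, but Pa1F/F replicate 2 lay much nearer to the knockout libraries than its fellows did. The log2 fold change was -1.12 (standard error 0.21), a mean 2.18-fold lower, and it moved to -0.96 without Pa1F/F replicate 1, which took it to the other side of the fold threshold. At most 1 and 10 reads a library were counted on *Lrp8os1* and *Lrp8os2*, annotated on the opposite strand within *Lrp8*.

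*Vldlr* (ENSMUSG00000024924, chr19:27216484-27254231, plus strand), the very low-density lipoprotein receptor, gave 471, 334 and 397 normalized counts in Pa1F/F and 112, 124 and 87.2 in Amh-pa1-/- cells. Its lowest control library was still well above its highest knockout library. The means of 401 ± 68.6 and 108 ± 18.8 (SD, n = 3) differed 3.72-fold, a log2 fold change of -1.90 (standard error 0.18) that ranged from -2.01 to -1.76 over the libraries left out in turn. The intracellular adaptor of both reelin receptors, *Dab1*, had 1 to 6 counts in each of the 6 libraries and was not tested.

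The Wnt co-receptors stayed within their replicate spread, and *Lrp4* was lower. *Lrp5* (ENSMUSG00000024913, chr19:3584828-3686564, minus strand) gave 729, 629 and 774 normalized counts in Pa1F/F and 789, 771 and 659 in Amh-pa1-/- cells, a log2 fold change of 0.06 (standard error 0.11). *Lrp6* (ENSMUSG00000030201, chr6:134446476-134566965, minus strand) gave 2197, 1968 and 2531 in Pa1F/F and 2482, 2509 and 1909 in Amh-pa1-/- cells, a log2 fold change of 0.04 (standard error 0.13). In both genes the groups overlapped and the libraries that stood apart were the lowest of their group. *Lrp4* (ENSMUSG00000027253, chr2:91457511-91513779, plus strand) gave 103, 82.3 and 103 normalized counts in Pa1F/F and 36.1, 37.2 and 40.1 in Amh-pa1-/- cells. The groups did not overlap, the means differed 2.54-fold, and the log2 fold change was -1.34 (standard error 0.17). Its knockout libraries were the tightest of any member called lower, although from 33 to 40 raw counts.

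A gene was called where its adjusted p was under 0.05 and its log2 fold change reached 1 in size. By that rule 4 of the 9 members were called, 1 higher (*Lrp2*) and 3 lower (*Lrp4*, *Lrp8* and *Vldlr*). Over all tested genes it called 12.0%, with 5.44% higher and 6.56% lower. At the adjusted p alone 5 members passed, 1 higher and 4 lower, against 35.3% of tested genes (18.2% higher and 17.1% lower). The normalized counts of the same 5 did not overlap between genotypes, against 52.4% of tested genes (26.3% higher and 26.1% lower). Since the members were chosen on this contrast, nothing is read from these shares. *Lrp8* was the member nearest to the fold threshold from inside and *Lrp1* the nearest from outside. With the counts of the close pairs summed, which leaves 2 libraries a genotype, *Lrp4* (-1.26) and *Lrp8* (-0.95) no longer passed and 2 members were called, *Lrp2* at 4.85 and *Vldlr* at -1.89.

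**Figure D2:**
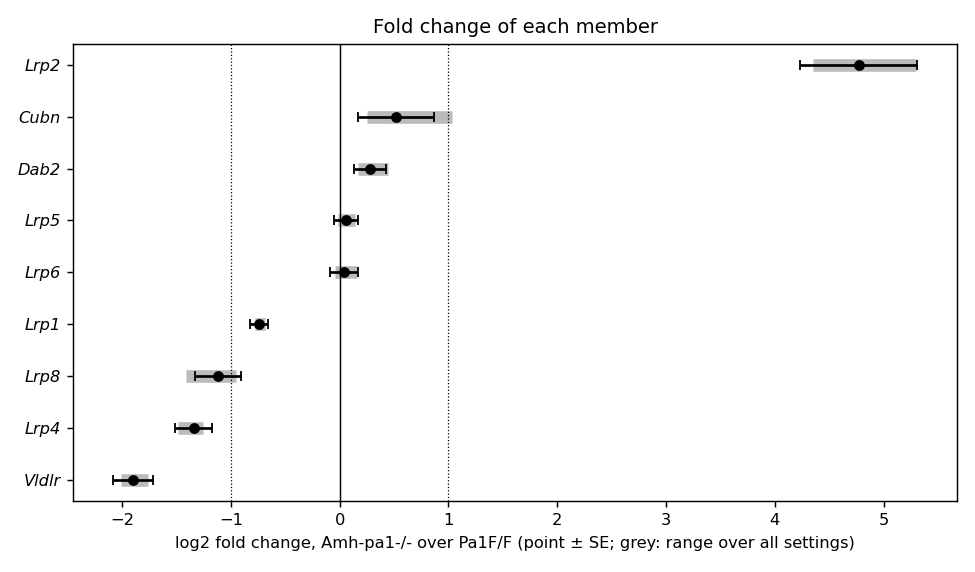
Log2 fold change of Amh-pa1-/- over Pa1F/F (horizontal axis) for each of the 9 genes, as a point with its standard error; the grey band is the range over the 16 other settings and the dotted lines mark the fold threshold. *Lrp2* at 4.77 lies far from the others, which fall between -1.90 (*Vldlr*) and 0.52 (*Cubn*), and the bands of *Lrp8* and *Cubn* cross a dotted line.

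Most members had the same lowest library within a genotype, while the highest library differed among them. Pa1F/F replicate 2 was the lowest of its group for 8 of the 9 members, *Cubn* being the exception, while it was the lowest for 38.2% of tested genes. Amh-pa1-/- replicate 3 was the lowest for 7 of the 9, and the highest for *Lrp4* and *Lrp8*, while it was the lowest for 41.3% of tested genes.

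Levels of different genes were compared as RPKM, which divides reads by the length of the annotated exons and by the effective depth. In Pa1F/F cells the order was *Lrp1*, *Lrp8*, *Lrp6*, *Dab2*, *Lrp5*, *Vldlr*, *Lrp4*, *Lrp2* and *Cubn*. *Lrp1* stood at a mean of 63.9 RPKM, above 97.1% of the 14787 tested genes with a known length, and *Lrp8* at 23.5. *Lrp6* (9.84), *Dab2* (8.06) and *Lrp5* (4.92) formed the middle, *Vldlr* followed at 2.68, and *Lrp4* (0.608), *Lrp2* (0.435) and *Cubn* (0.246) were near the bottom. *Lrp2* overlapped both of its neighbours in that order, since its libraries spanned 0.142 to 0.709 RPKM, and every other pair of neighbours was separated.

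In Amh-pa1-/- cells the order was *Lrp1* (38.3 RPKM), *Lrp2* (11.8), *Lrp8* (10.8), *Lrp6* (10.1), *Dab2* (9.80), *Lrp5* (5.12), *Vldlr* (0.721), *Cubn* (0.354) and *Lrp4* (0.239). *Lrp2* moved from above 12.0% to above 77.6% of tested genes, and *Lrp8* from 89.3% to 75.6%. From *Lrp2* down to *Dab2* neighbours overlapped, as did *Cubn* and *Lrp4*, so the ranks within those runs are not resolved. With the longest annotated transcript in place of the union of exons, *Lrp2* came after *Lrp8*, *Dab2* and *Lrp6*.

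As a share of the summed RPKM of the 7 receptors, *Lrp2* made up 0.409%, 0.154% and 0.621% in the control libraries and 16.9%, 17.9% and 10.4% in the knockout libraries, in the order of their replicate numbers. The sum itself was lower in every Amh-pa1-/- library, at 111, 92.5 and 114 RPKM in Pa1F/F cells and 81.1, 81.6 and 68.6 RPKM in Amh-pa1-/- cells. *Lrp1* remained the main receptor, at a mean of 60.7% and 49.8%. In the same order *Lrp8* went from 21.9% to 14.1% and *Vldlr* from 2.53% to 0.930%, while *Lrp6* went from 9.30% to 13.1% and *Lrp5* from 4.65% to 6.64% at nearly the same level.

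**Figure D3:**
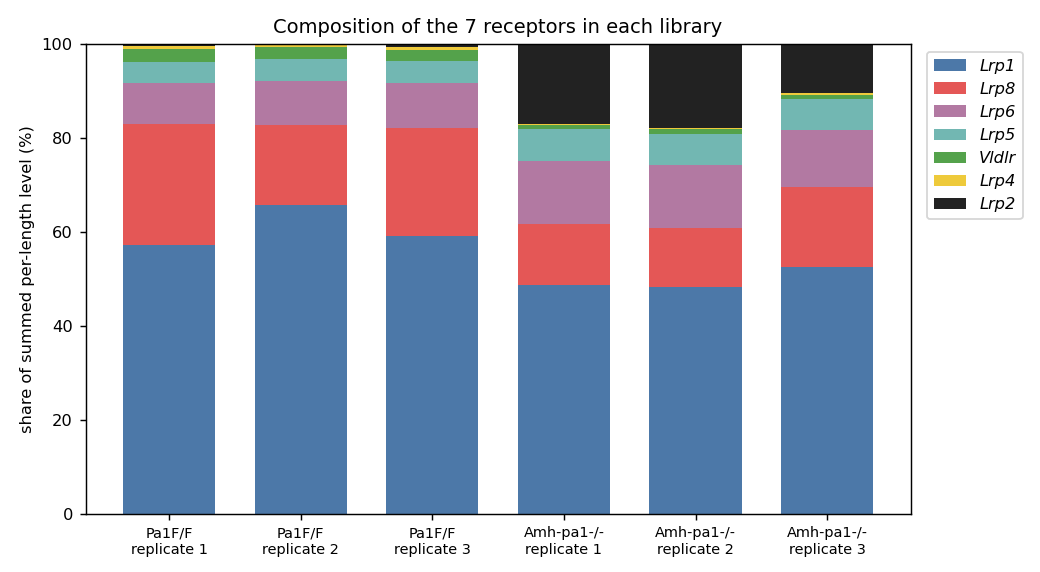
Share of each of the 7 receptors in their summed per-length level (vertical axis, percent) in each of the 6 libraries. *Lrp2* (black) takes 0.154% to 0.621% in the Pa1F/F libraries and 10.4% to 17.9% in the Amh-pa1-/- libraries, and *Lrp1* (blue) is the largest share in every library.

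Ratios within a library do not depend on the scaling between libraries. The ratio of *Lrp6* to *Lrp5* in RPKM was 1.92, 1.99 and 2.08 in Pa1F/F and 2.005, 2.07 and 1.84 in Amh-pa1-/- cells. The ratio of *Lrp2* to *Cubn* was 1.96, 0.418 and 4.24 in Pa1F/F and 39.6, 30.2 and 30.6 in Amh-pa1-/- cells. *Lrp1* exceeded *Lrp2* by 140, 428 and 95.1 times in Pa1F/F libraries and by 2.88, 2.69 and 5.05 times in Amh-pa1-/- libraries. The ratio of *Lrp8* to *Vldlr* was 9.004, 7.08 and 9.86 in control and 13.9, 12.4 and 20.1 in knockout libraries, without overlap. *Lrp2* and its adaptor *Dab2* were at a ratio of 0.0545, 0.0197 and 0.0820 in Pa1F/F and of 1.22, 1.39 and 0.934 in Amh-pa1-/- cells.

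Around the members, 5 lists of genes of the same pathways were examined, which hold 101 genes, of which 96 were listed in the table and 77 were tested. Of these, 11 were called, 4 higher and 7 lower, which is 14.3% against 12.0% of all tested genes. At an adjusted p under 0.05 alone, 20 were higher and 17 lower, together 48.1% against 35.3%. Of these 37 genes, 22 also passed it with each library left out in turn. For single genes of these lists and for neighbouring genes, the value given beside an adjusted p, or alone in brackets, is the log2 fold change, positive where Amh-pa1-/- cells were higher.

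Among the other receptors of the family, 8 of 11 were tested, 2 were called lower and none higher, and the median log2 fold change was -0.19 against 0.00 over all tested genes. *Lrp3* gave 63.4, 62.9 and 66.1 normalized counts in Pa1F/F and 26.4, 39.4 and 28.1 in Amh-pa1-/- cells (log2 fold change -1.04, adjusted p = 0.00968). *Lrp11* gave 1202, 911 and 991 against 577, 566 and 405, a mean 2.01-fold lower (adjusted p = 0.00444). Both lie near the fold threshold and lost their call with a library left out, *Lrp3* at -0.92 and -0.97 without Amh-pa1-/- replicate 1 or 3, and *Lrp11* at -0.88 without Pa1F/F replicate 1 and -0.85 without Amh-pa1-/- replicate 3. *Lrp12* rose (0.59, adjusted p = 0.00157). *Ldlrad4* gave -0.79 (adjusted p = 0.0282) and *Lrp10*, with a mean of 41.0 and 46.6 RPKM the highest of the list, gave 0.18 (adjusted p = 0.0234), but with a library left out each passed the adjusted p in 1 of 6 settings, that without Amh-pa1-/- replicate 3. The adjusted p otherwise reached 0.0938 and 0.0961. Without that library *Ldlrad4* stood at -1.08 (adjusted p = 0.000449) and was called lower.

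Of the genes that fold, cleave and turn over these receptors, all 9 were tested, and 3 rose and 1 fell at the adjusted p (median 0.26). *Adam10*, a protease that sheds the outer part of several family members, gave 5177, 4819 and 5619 normalized counts in Pa1F/F and 14827, 14327.5 and 9479 in Amh-pa1-/- cells (log2 fold change 1.31, standard error 0.17, adjusted p = 0.00208) and was the only one called. *Mesd*, the chaperone of *Lrp5* and *Lrp6*, rose (0.46, adjusted p = 0.00146), as did *Ncstn* of the γ-secretase complex (0.46, adjusted p = 0.00594). *Lrpap1*, the chaperone that keeps ligands off *Lrp1* and *Lrp2* on their way to the surface, gave 1896, 1898 and 1813 normalized counts against 2126, 2158 and 3382 and did not pass (0.45, adjusted p = 0.0913).

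Of 26 endocytic adaptors and clathrin coat genes 24 were tested and 0 were called by edgeR, DESeq2 or limma-voom. At an unadjusted p under 0.05 were 8 by each, against 6870 of all 14919 tested genes by edgeR. At the adjusted p alone 6 were higher and 2 lower, with a median of 0.05, but 2 of these 8 (*Ap2a2* and *Myo6*) passed it with each library left out in turn and 4 under the replicate block. The largest of these was *Ap2a2*, an α subunit of the clathrin adaptor AP-2, at 1152, 989.5 and 1209 normalized counts in Pa1F/F and 2023.5, 1912 and 2018 in Amh-pa1-/- cells (0.83, adjusted p = 0.000721). *Myo6*, a motor of endocytic vesicles, rose (0.36, adjusted p = 0.00818) and *Numb*, an adaptor, fell (-0.45, adjusted p = 0.0118, and 0.0509 without Amh-pa1-/- replicate 2). The clathrin light chain gene *Cltb*, at 78.3 and 79.1 RPKM the highest of the list, gave 0.02 (adjusted p = 0.930).

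Ligands and cargo held 8 of the 11 calls. Of 34 genes 31 were listed and 23 tested; 3 were called higher and 5 lower, and 5 and 10 passed the adjusted p (median -0.35). *Apoe*, the lipoprotein ligand shared by most of the family, gave 1521, 1471 and 1612 normalized counts in Pa1F/F and 405, 381 and 257 in Amh-pa1-/- cells (log2 fold change -2.14, standard error 0.17, adjusted p = 0.000308). The phospholipid transfer protein *Pltp* (-1.52, adjusted p = 0.000666) and *Shbg*, the androgen carrier of Sertoli cells (-1.29, adjusted p = 0.00253, and 0.0523 with close pairs summed), fell too, and *Clu*, a megalin ligand with 193368 ± 817 and 119830 ± 22962.5 normalized counts (SD, n = 3), gave -0.69 (adjusted p = 0.0220), which missed the adjusted p in 4 of 6 settings with a library left out (up to 0.103). *Lpl*, a lipase that bridges lipoproteins to *Lrp1* and *Vldlr*, rose from 7471, 7093 and 8162 to 15639, 15444 and 12528 normalized counts (0.94, adjusted p = 0.00119, and 1.04 without Amh-pa1-/- replicate 3).

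The proteases, inhibitors and matrix proteins cleared by *Lrp1* went both ways. *Serpine2* gave 6642, 7171 and 6127 normalized counts in Pa1F/F and 2791, 2849 and 2776 in Amh-pa1-/- cells (-1.24, adjusted p = 0.000114), and *Plau*, the urokinase gene, fell as well (-1.14, adjusted p = 0.00587, and -0.99 without Amh-pa1-/- replicate 2), as did *Tfpi* (-0.62, adjusted p = 0.00585). *A2m*, the inhibitor for which *Lrp1* is the classical receptor, rose from 34.4, 54.2 and 40.9 to 186, 197 and 482 normalized counts (2.74, standard error 0.43, adjusted p = 0.00388, and 2.15 without Amh-pa1-/- replicate 3). *Thbs1* (1.07, adjusted p = 0.0147) was called higher, but stood at 0.83 without Amh-pa1-/- replicate 3 and at 0.89 without Pa1F/F replicate 2, short of the fold threshold. Without Pa1F/F replicate 1 it missed the adjusted p (0.0518). *Reln* (0.04, adjusted p = 0.933), the ligand of *Lrp8* and *Vldlr*, and *Selenop* (-0.35, adjusted p = 0.0806), a ligand of *Lrp8*, did not pass.

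Of 21 co-receptor and signalling partners 19 were listed, 13 were tested and 0 were called by edgeR, DESeq2 or limma-voom, with a median of -0.04. At an unadjusted p under 0.05 were 4 by each, against 6870 of all 14919 tested genes by edgeR. *Axin2*, a feedback target of Wnt signalling, lay just short of the fold threshold, with 166, 139 and 158 normalized counts in Pa1F/F and 268, 285 and 368 in Amh-pa1-/- cells (0.99, standard error 0.15, adjusted p = 0.00335), and at 0.84 to 1.08 with a library left out. It was called in 4 of those 6 settings, with library size alone as the scaling, without the filter on low counts and with close pairs summed (1.10). *Crk*, with a mean of 34.4 and 47.8 RPKM the highest of the list, and *Fyn*, both downstream of reelin receptors, rose by less (0.48, adjusted p = 0.00103, and 0.46, adjusted p = 0.00286).

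**Figure D4:**
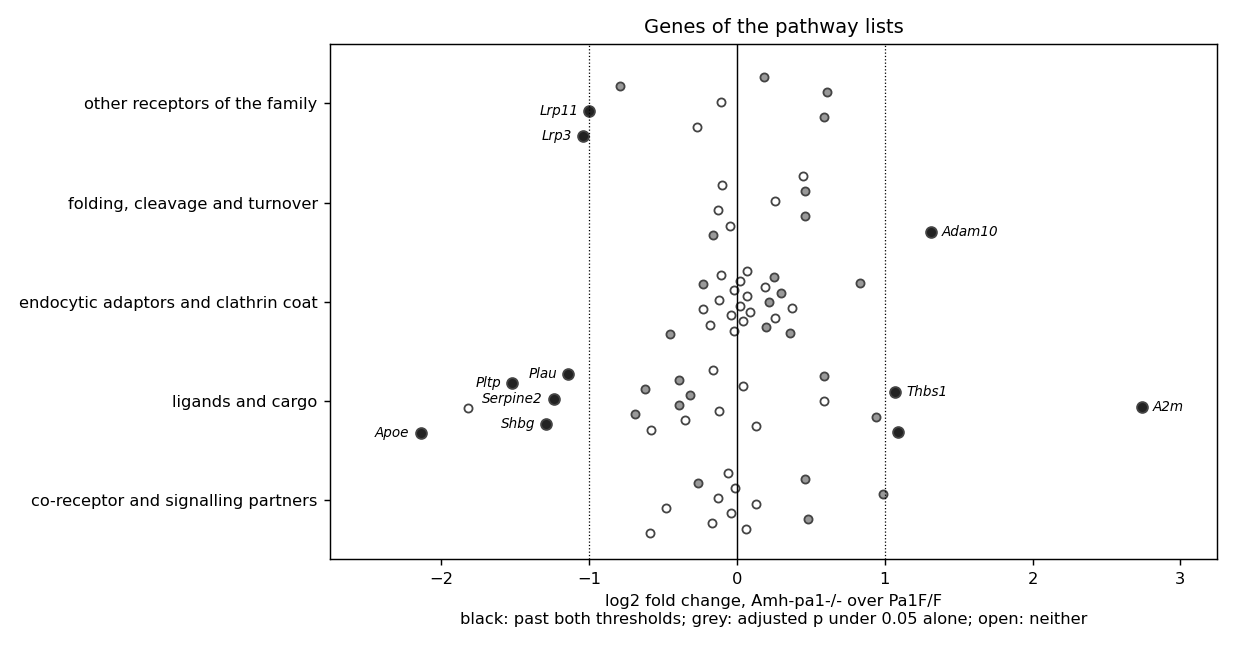
Log2 fold change of Amh-pa1-/- over Pa1F/F (horizontal axis) of the 77 tested genes of the 5 lists (rows; the height within a row only spreads the points). Black points passed both thresholds, and those described in the text are named, grey points passed the adjusted p alone and open points neither; 8 of the 11 black points are ligands and cargo.

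On the chromosome, the tested genes nearest to *Lrp2* differed by far less between the genotypes. The nearest tested genes at higher coordinates, *Bbs5* (61.1 kb away) and *Fastkd1* (101 kb), gave 0.11 (adjusted p = 0.421) and -0.06 (adjusted p = 0.725). At lower coordinates *Spc25* (218 kb) rose (1.15, adjusted p = 0.00986, and 0.87 without Amh-pa1-/- replicate 3) and *Cers6* (310.1 kb) fell (-0.56, adjusted p = 0.00313). Next to *Cubn*, *Rsu1* at a distance of 4.92 kb rose from 872, 746 and 841 to 1515, 1485 and 1329.6 normalized counts (0.82, adjusted p = 0.000828). *Vim* gave 0.35 (adjusted p = 0.0155), but its adjusted p was above 0.05 in 4 of 6 settings with a library left out. *Pter* (-0.13) and *Trdmt1* (0.21) did not pass.

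By the root mean square distance between centred log2 CPM values over the 6 libraries, the tested genes most like *Lrp2* were *Gm37565* (0.44), *Gm15228* (0.52), *Upk3b* (0.66), *Synpr* (0.83) and *Pkhd1l1* (0.87). *Synpr* shared the low value in Amh-pa1-/- replicate 3, with 20.8, 16.5 and 23.1 normalized counts in Pa1F/F and 401, 409 and 149 in Amh-pa1-/- cells. *Pkhd1l1* did not, with 1.81, 1.94 and 4.20 against 369, 337 and 378. No member of the family was among the 5. By Pearson correlation, which ignores the size of the change, 0 of these 5 were among the 5 nearest.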

How the data were processed

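Total RNA of 6 Sertoli cell samples was sequenced on an Illumina HiSeq instrument from NEBNext Ultra libraries. The authors aligned reads to GRCm38 with HISAT2 2.1.0 and deposited un-normalized read counts per gene from HTSeq 0.6.0 (versions per the submitters' processing notes); no strand setting is stated. Their comparison columns (fold changes, p-values) were not used. *Pa1* was not analysed here, so genotype rests on the labels. The study calls the replicates biological, but whether they came from separate animals is not stated, so p-values measure the spread between these samples, which may be technical.

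Counts were filtered with filterByExpr (minimum count 10, total 15), scaled by TMM (factors 0.990 to 1.03) and tested with edgeR 4.0.16 (quasi-likelihood, R 4.3.3) with Benjamini-Hochberg adjustment over 14919 genes. The study's DEGseq, which takes no replicate spread, was not run. Calls needed an adjusted p under 0.05 and a log2 fold change of at least 1 in size. The main edgeR fit and the DESeq2 and limma-voom fits were tested on simulated counts. The other settings of the edgeR fit and the promoter search were not. Exon lengths came from GENCODE M39, a later build, by gene ID (27251 of 28262 genes), and no coordinate was taken from it. Reads carry no molecular identifiers, so depth limits cover counting error only.

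Members and lists were chosen with earlier results of these data known. Named were all members, list genes past both thresholds, up to 3 per list past the adjusted p alone, the highest gene per length in each list, the 2 nearest tested genes on each side of *Lrp2* and *Cubn*, the 5 profiles nearest to *Lrp2* and markers that moved with a result. Some genes that this rule names are not reported here. *Amn*, *Dab1*, *Lrpap1*, *Reln* and *Selenop*, and the markers other than these, were named for their role with their values already seen. Alternatives were DESeq2 1.42.0 size factors and Wald test, library size only, limma-voom (limma 3.58.1), other filters on low counts, a prior count of 2, a replicate block, each library left out, both libraries that stand apart left out, the close pairs summed, and no fold threshold. Exon length by longest transcript was chosen after seeing the data.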

Additional observations from a re-analysis of the deposited data

How the results depend on the processing

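The log2 fold change of *Lrp2* was 4.75 to 4.98 under other normalizations, filters, prior counts and tests, 4.35 to 5.30 with each library left out, 4.62 with both libraries that stand apart left out and 4.85 with close pairs summed. Leaving out each library gave 3 to 4 members called, 1466 to 2076 genes called (1791 with all) and 10 to 13 pathway genes called (11 with all). Close pairs summed gave 2 members, 883 genes and 6 pathway genes called, and the adjusted p alone gave 5266 genes and 37 pathway genes. Same-numbered replicates did not deviate together, with correlations of 0.108, -0.164 and -0.179 between deviations from the group means. No sample correlated best with its own number, and the highest correlation, 0.214, was between Pa1F/F replicate 2 and Amh-pa1-/- replicate 3. With the number as a replicate block *Lrp2* stood at 4.82, and 4 members, 1558 genes and 11 pathway genes were called. None of the 58 other genes counted below changed its call by both thresholds under the block. At the adjusted p alone some missed it, among them *Lrp10* (0.100), *Clu* (0.0773) and *Vim* (0.0800). Of the 37 pathway genes past the adjusted p, 27 passed it with the block and 11 with close pairs summed. The 58 genes counted beside *Lrp2* were the other members, the 37 pathway genes past the adjusted p, the neighbours and the nearest profiles. Cell type markers were counted only where they fell in these sets. Of the 58, 44 kept their side of both thresholds together in every setting in which they were tested. The other 14 changed it in at least 1 setting, and none of those with a call changed direction. The *Lrp2* share of the 7 receptors was 0.298% and 11.9% with the longest transcript, against 0.395% and 15.1%. The median over all tested genes stayed between -0.00 and 0.01. With 3 libraries a genotype and 33 to 114 counts a library for *Lrp4* and 35 to 94 for *Cubn*, differences in those genes are less precise than in *Lrp1*.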

Other observations

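Some markers of other cell types that an isolation of Sertoli cells can carry also differed between the genotypes. The summed level of 7 Leydig cell markers was 794 to 911 CPM in Pa1F/F and 165 to 288 CPM in Amh-pa1-/- libraries, and all 3 tested genes of the list were called lower. Nearly all of that sum was *Star* (a mean of 7911 and 2628 normalized counts) and *Cyp11a1* (4386 and 364), while *Insl3*, *Cyp17a1*, *Hsd3b6* and *Lhcgr* had 0 to 15 raw counts a library and were not tested. The summed level of 6 peritubular myoid markers was 222 to 283 CPM and 828 to 1268 CPM, with 1 of 5 tested genes called higher. That gene was *Acta2*, which made up most of the sum (2537 to 3239 and 11886 to 15383 normalized counts). The other 4 did not pass. *Myh11* gave 649, 481 and 580 normalized counts in Pa1F/F and 216, 164 and 1605 in Amh-pa1-/- cells, and *Des*, *Actg2* and *Cnn1* were likewise highest in Amh-pa1-/- replicate 3. The 8 macrophage markers summed to 93.1 to 98.0 CPM and 69.7 to 90.4 CPM, with 4 of 6 tested genes called lower. Most of that sum was *Mrc1* (a mean of 984 and 1109 normalized counts), which was not called, while *Adgre1*, *Csf1r*, *Cd68* and *C1qc* had means 3.14-fold to 10.6-fold lower in Amh-pa1-/- cells. The 6 endothelial markers, most of whose sum was *Cdh5* (a mean of 1585 and 869 normalized counts), summed to 116 to 122 CPM and 63.9 to 101 CPM, with 1 of 4 tested genes called higher and 1 called lower. The germ cell markers summed to 6.06 to 9.27 CPM and 2.85 to 7.90 CPM, with 3 of 4 tested genes called lower. *Amh*, whose promoter drives the Cre, stood at 186, 254 and 179 normalized counts in Pa1F/F and at 43.9, 48.4 and 365 in Amh-pa1-/- cells, with Amh-pa1-/- replicate 3 above every other library. The part of these cells in the levels of the LDL receptor family was not tested.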
